A study of Mus musculus with 8 samples.

Results

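The expression of 10 genes of glycolysis, out of 53801 Ensembl genes in the count tables, was followed in resting B cells and T cells of the mouse. They were chosen by name from the pathway: the hexokinases Hk1 and Hk2, the aldolases Aldoa and Aldoc, Gapdh, Pgk1, Eno1, Pkm, and the lactate dehydrogenase subunits Ldha and Ldhb. Every one of the 10 matched a symbol, and Aldoa matched 2 Ensembl IDs, of which the second held 3 counts over the 8 libraries and was set aside. Cells came from the spleen of B6 mice, and the sources used here give no age or sex for them. Both cell types were separated with magnetic sorting kits and held in medium for 2 hours without a stimulus named in the labels, so the resting state refers to cells after this culture. There were 4 groups of 2 libraries: B cell mRNA, T cell mRNA, B cell ribosome footprints and T cell ribosome footprints. Only the cells for footprints received cycloheximide, which halts ribosomes, at 100 µg/ml for 15 minutes. Footprints are the mRNA stretches that ribosomes shield from nuclease, and they report how many ribosomes sit on a gene's mRNA.

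Glycolysis splits glucose into pyruvate in the cytosol and yields ATP without oxygen, and lactate dehydrogenase then turns pyruvate into lactate while restoring NAD+. Resting lymphocytes run the pathway at a low rate and raise it strongly on activation. Several steps can be carried out by more than one gene product, and these paralogs differ in kinetics and in the tissues that use them. Levels below are counts per 1000000 (CPM), with library totals scaled by the trimmed mean of M values within each assay. A value after ± is a standard deviation for CPM and a standard error for a log2 difference, with n = 2 libraries per group. Tests were edgeR's quasi-likelihood test with Benjamini-Hochberg adjustment over all genes tested, and a gene passed at an adjusted p under 0.05.

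The libraries held 8945905 to 10050986 counts in RNA-seq and 136433 to 627833 in footprints, so that 1 count stood for 0.102 to 0.112 CPM in RNA-seq and for 1.60 to 7.96 CPM in footprints. The labelled cell types carried their defining markers: all 10 B cell markers passed as higher in B cells in both assays. All 12 T cell markers passed as lower in B cells in footprints. In mRNA 3 of the 12 passed as lower, and the other 9 had estimates below 0 that did not pass. T cell library 2 of the footprints was the shallowest library, and each of its values rests on few counts. Small nucleolar and nuclear RNAs took 2.76% to 18.6% of the footprint counts. B cell mRNA library 3 stood apart by the level of its T cell markers. Their sum was 11.3% of that in T cells, against 1.60% in B cell mRNA library 1. In the B cell footprint libraries 1 and 3 it was 2.08% and 5.72%. In turn, the sum of the B cell markers in T cell mRNA libraries 1 and 4 was 0.742% and 1.65% of the level of B cells, and in T cell footprint libraries 1 and 2 it was 1.54% and 4.85%. Markers of natural killer cells summed to 23.1 and 105 CPM in B cell mRNA and to 460 and 623 CPM in T cell mRNA, and in footprints to 79.6 and 705 CPM in B cells against 995 and 1139 CPM in T cells. Plasma cell markers summed to 2497 and 959 CPM in B cell mRNA against 1188 and 145 CPM in T cell mRNA, and to 2312 and 4433 CPM against 432 and 764 CPM in footprints. Markers of macrophages, monocytes and neutrophils summed to 42.99 and 151 CPM in B cell mRNA against 45.1 and 334 CPM in T cell mRNA, and to 206 to 652 CPM in footprints. The part of these cells in the results was not tested. In bulk cells of this kind, fewer cells that use a gene and less of its RNA per cell cannot be told apart.

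Ldhb and Hk1 mRNA were lower in B cells than in T cells, Ldha mRNA was lower to a smaller degree, and Aldoc mRNA was higher. Thus 4 of the 10 genes passed the test for mRNA, 1 higher and 3 lower in B cells. Over all 13929 genes tested 18.5% passed, 9.40% higher and 9.06% lower. The median log2 difference of the 10 genes was -0.44, against -0.01 over all genes. In footprints 8 of the 10 genes had enough counts to be tested, and only Ldhb passed, lower in B cells. It met the count filter through its T cell libraries alone. In that comparison 13.2% of 4771 genes passed, 8.38% higher and 4.80% lower in B cells. The median of the 8 genes was -0.20, against 0.02 over all genes.

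**Figure D1:**
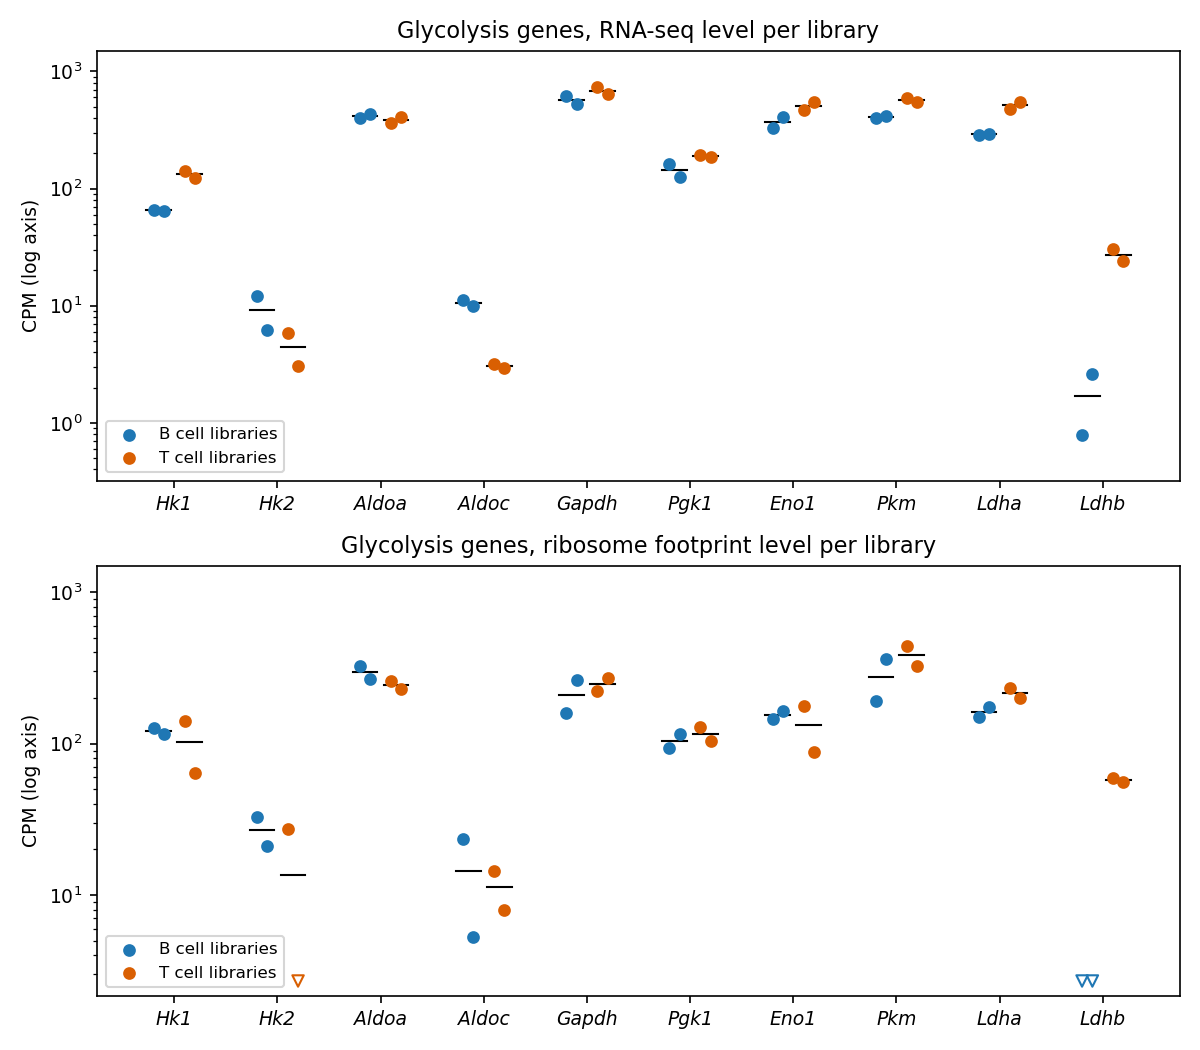
Level of each gene in each library, in CPM on a log axis, in RNA-seq (top) and in ribosome footprints (bottom). Each filled point is 1 library, the black bars are group means, and open triangles at the lower edge mark libraries with 0 counts. Ldhb reaches at most 2.62 CPM in B cell mRNA against 24.0 and 30.4 in T cells.

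Hexokinases catalyse the first step, the phosphorylation of glucose that keeps it in the cell. Hk1 (ENSMUSG00000037012, chromosome 10, 62268855 to 62379920 in GRCm38.p6) is the form found in most tissues. Its mRNA stood at 65.5 and 64.6 CPM in B cell libraries 1 and 3, against 142 and 124 CPM for T cell libraries 1 and 4. The groups did not overlap and the B cell libraries were nearly equal, with a log2 difference of -1.03 ± 0.13 (adjusted p = 0.0114), or 2.04-fold lower in B cells. Footprints on Hk1 did not show that order. B cell footprint libraries held 27 and 22 counts (126 and 116 CPM), and those of T cells held 88 and 8 (141 and 63.7 CPM). The T cell libraries lay on either side of both B cell libraries, and the log2 difference was 0.12 ± 0.46 (adjusted p = 0.923), with a 95% confidence interval from -0.90 to 1.13. Without T cell footprint library 2, the estimate was -0.27.

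Hk2 (ENSMUSG00000000628, chromosome 6, 82725025 to 82774454) is the form typical of muscle and of growing cells. Its mRNA stood at 12.1 and 6.23 CPM in B cells and at 5.90 and 3.06 in T cells. The groups did not overlap, but the lowest B cell and the highest T cell library were close, and the difference of 1.03 ± 0.51 did not pass (adjusted p = 0.244). Leaving out B cell library 1 gave 0.48 and leaving out T cell library 1 gave 1.58. Footprints on Hk2 were too few for the test, with 7 and 4 counts in the B cell libraries against 17 and 0 in those of T cells. The 0 of T cell library 2 allows up to 3 counts at the depth of that library.

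Aldolases split fructose bisphosphate into triose phosphates. Aldoa (ENSMUSG00000030695, chromosome 7, 126795234 to 126800994) is the ubiquitous and muscle form. Its mRNA was similar throughout, at 402 and 431 CPM in B cells against 363 and 407 in T cells. The groups overlapped, and the difference was 0.11 ± 0.16 (adjusted p = 0.692) with an interval from -0.30 to 0.52. Aldoa footprints stood at 328 and 268 CPM in B cells against 260 and 231 in T cells, a difference of 0.27 ± 0.38 (adjusted p = 0.760). Aldoc (ENSMUSG00000017390, chromosome 11, 78323073 to 78327781) is the form best known from brain. Its mRNA was low in both cell types, at 11.1 and 9.95 CPM in B cells against 3.15 and 2.96 in T cells, or 99, 91, 31 and 28 counts. Libraries of a group were close and the groups were well apart, with a difference of 1.78 ± 0.27 (adjusted p = 0.0182), or 3.44-fold higher in B cells. With any 1 of the 4 libraries left out the difference stayed between 1.71 and 1.87, but the adjusted p was 0.0505 to 0.0864 and the gene no longer passed. T cell libraries 1 and 4 held 29.9% and 28.1% of the B cell mean of Aldoc, beside the 0.742% and 1.65% for the summed B cell markers of the same libraries. The part of B cells or of other cells in the Aldoc counts of T cell libraries was not tested. Aldoc footprints were too few for the test, with 5 and 1 counts against 9 and 1.

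The middle and lower steps were carried by genes whose mRNA did not pass the test. Gapdh (chromosome 6, 125161852 to 125166467), which oxidises glyceraldehyde phosphate, had 612 and 531 CPM in B cells against 729 and 642 in T cells (-0.26 ± 0.18, adjusted p = 0.381). Pgk1 (chromosome X, 106187100 to 106203699), which makes the first ATP of the pathway, had 161 and 125 CPM in B cells against 195 and 187 in T cells (-0.42 ± 0.17, adjusted p = 0.176). Eno1 (chromosome 4, 150236708 to 150248879), the enolase of most tissues, had 327 and 411 CPM in B cells against 467 and 550 in T cells (-0.46 ± 0.20, adjusted p = 0.189). For each of the 3, both B cell libraries lay below both T cell libraries. The same held for Pkm (chromosome 9, 59656576 to 59679372), which encodes pyruvate kinase of muscle and dividing cells and had 401 and 414 CPM in B cells against 594 and 542. Its difference was -0.48 ± 0.15, with an adjusted p of 0.104 in edgeR and of 0.00387 in DESeq2. The order of both B cell libraries below both T cell libraries cannot give an exact two-sided permutation p under 0.333. Its share over all genes was not counted. The counts are per gene and do not separate the M1 and M2 splice forms of Pkm.

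Footprints on these 4 genes overlapped between B and T cells. Gapdh had 159 and 263 CPM in B cells against 221 and 271 in T cells, and Pgk1 had 93.6 and 116 against 128 and 104. Eno1 had 145 and 163 CPM against 177 and 87.6, and Pkm 192 and 363 against 443 and 326. None passed: the log2 differences were -0.21 ± 0.40, -0.18 ± 0.42, 0.12 ± 0.43 and -0.49 ± 0.43 in that order, with adjusted p between 0.581 and 0.914. The intervals were wide, from -1.09 to 0.68 for Gapdh and from -1.44 to 0.45 for Pkm, and each includes the gene's mRNA difference.

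**Figure D2:**
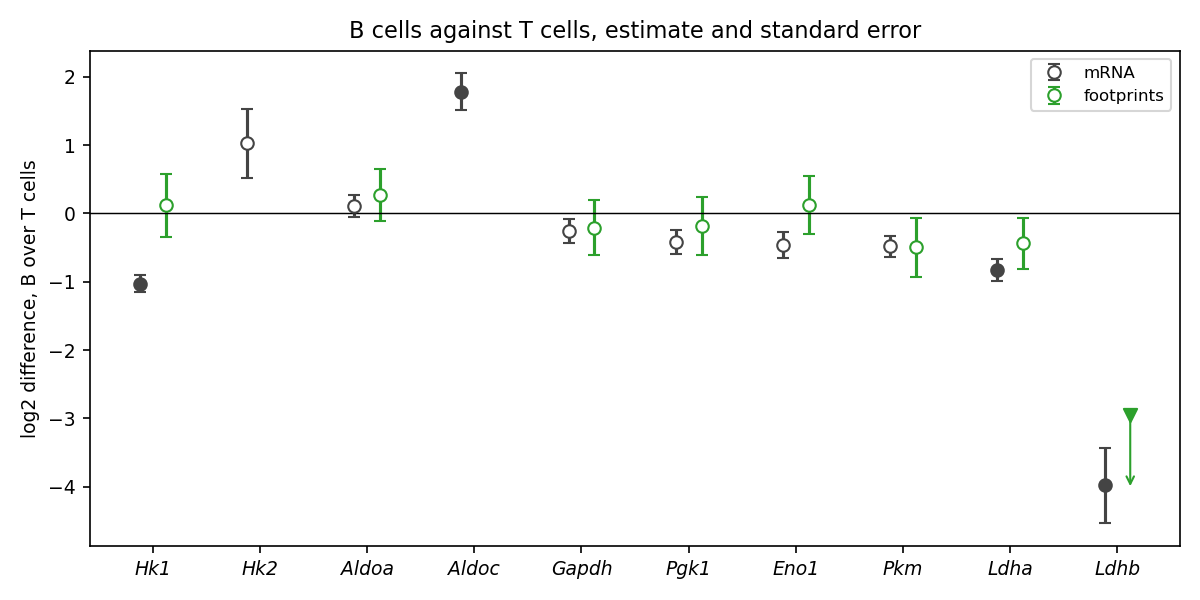
Log2 difference of B over T cells for each gene, in mRNA (grey) and footprints (green), with standard errors. Filled points passed the test, Hk2 and Aldoc had too few footprints, and the arrow at Ldhb marks a bound against 3 counts, at least 7.75-fold lower. Hk1 passed in mRNA, while its footprint estimate of 0.12 ± 0.46 did not pass and had a 95% confidence interval from -0.90 to 1.13.

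Lactate dehydrogenase is a tetramer of A and B subunits. The A subunit, from Ldha, favours the reduction of pyruvate to lactate, and the B subunit, from Ldhb, is typical of heart and other oxidative tissues. Ldha (ENSMUSG00000063229, chromosome 7, 46842274 to 46855627) had 285 and 294 CPM of mRNA in B cells against 478 and 547 in T cells. The B cell libraries lay close together and below both T cell libraries (-0.82 ± 0.16, adjusted p = 0.0312), a 1.77-fold difference. It did not pass with any 1 of the 4 libraries left out (adjusted p = 0.0538 to 0.126). Ldha footprints had the same order, 150 and 174 CPM in B cells against 233 and 199 in T cells, but the difference of -0.44 ± 0.37 did not pass (adjusted p = 0.570).

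Ldhb (ENSMUSG00000030246, chromosome 6, 142490249 to 142507957) showed the widest separation of the 10 genes. Its mRNA stood at 0.786 and 2.62 CPM in B cell libraries 1 and 3, from 7 and 24 counts. T cell libraries reached 30.4 and 24.0 CPM, from 299 and 227 counts. The difference was -3.98 ± 0.55 (adjusted p = 0.0148). B cell libraries 1 and 3 held 2.89% and 9.65% of the T cell mean of Ldhb, beside the 1.60% and 11.3% for the summed T cell markers of the same libraries. The part of T cells in the Ldhb counts of B cell libraries was not tested. Leaving out B cell library 3 gave -5.08 and leaving out B cell library 1 gave -3.36, and Ldhb passed each time. Footprints on Ldhb numbered 37 and 7 in the T cell libraries (59.4 and 55.7 CPM) and 0 in both B cell libraries. Taken against 3 counts over the B cell group, footprints were at least 7.75-fold lower in B cells. The edgeR test on the counts gave an adjusted p of 0.00444. Ldhb met the count filter of that test through its T cell libraries alone, so the pass adds no support beyond the counts. Without T cell footprint library 2 the adjusted p was 0.0847, and without T cell footprint library 1 the gene fell below the count filter.

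The promoters of the lactate dehydrogenase pair are shown because their mRNAs had the largest and the smallest of the 3 differences towards T cells. Each sequence is the stretch of 250 bases before a RefSeq transcription start in GRCm38.p6, read 5′ to 3′ on the gene's strand. For Ldha it is the first listed of 2 starts, chr7:46845554-46845803 on the plus strand, and for Ldhb the single listed start, chr6:142507958-142508207 on the minus strand. Capitals mark matches to ACGTG or its reverse complement CACGT, a form of the core of the element that the hypoxia-inducible factor binds. The form GCGTG was not searched, and it occurs unmarked in the Ldhb window.
Ldha: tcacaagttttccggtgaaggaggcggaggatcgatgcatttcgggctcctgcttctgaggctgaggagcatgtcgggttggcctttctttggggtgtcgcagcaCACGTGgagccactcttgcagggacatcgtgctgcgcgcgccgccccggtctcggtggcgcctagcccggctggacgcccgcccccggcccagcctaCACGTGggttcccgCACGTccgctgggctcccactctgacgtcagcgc
Ldhb: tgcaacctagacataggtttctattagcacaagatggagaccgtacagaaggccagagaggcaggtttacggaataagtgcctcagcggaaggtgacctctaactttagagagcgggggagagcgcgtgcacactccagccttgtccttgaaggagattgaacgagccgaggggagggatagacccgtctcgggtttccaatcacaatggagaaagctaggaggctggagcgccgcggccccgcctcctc
The Ldha window held 5 matches, counting both strands, of which 4 came from a pair of CACGTG palindromes where the motif overlaps its complement. The window of the other Ldha start held 0, as did the Ldhb window. Over the 10 genes, 6 of 18 start windows held at least 1 match (33.3%), against 16.6% of 32851 windows of the same length in the table. The 6 windows belonged to Hk2, Aldoa, Pgk1, Pkm and Ldha. Matches are given as a description of the letters, and no binding was measured.

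In mRNA, the balance of the 2 paralogs did not overlap between the B and T cell libraries in any of the 3 pairs. How often other gene pairs separate in this way was not counted. The pairs use the same counts as the tests of single genes above and are no separate support. Each pair was described by the share of its counts that fell on the second gene. Gene lengths were not used, so a share can be compared between libraries but does not compare the levels of the 2 genes. Intervals are exact 95% binomial (Clopper-Pearson) intervals and cover counting error only. In each pair test the groups hold 2 libraries each, and the smallest two-sided p that the exact permutation test can give is 0.333. It was 0.333 for 10 of 11 pair comparisons and 1 for the other, or 0.367 and 1 after Benjamini-Hochberg adjustment.

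Ldhb took 0.275% (0.111 to 0.566) and 0.884% (0.567 to 1.31) of the Ldha and Ldhb counts in B cell mRNA libraries 1 and 3. In T cell mRNA libraries 1 and 4 it took 5.98% (5.34 to 6.68) and 4.20% (3.68 to 4.77). The intervals of the cell types did not overlap, and the ratio of Ldha to Ldhb was 10.2-fold higher in B cells. On the log2 scale this difference of 3.35 was 2.54 without B cell mRNA library 1 and 4.16 without B cell mRNA library 3. In T cell footprints the share was larger, 20.3% (14.7 to 26.9) in library 1 and 21.9% (9.28 to 39.97) in library 2. In B cell footprints it was 0 of 32 and 0 of 33 counts, which allows up to 9.38% and 9.09%. Over both B cell libraries the 0 of 65 counts allows up to 4.62%, and the ratio of Ldha to Ldhb was at least 5.61-fold higher than in T cells.

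Aldoc took 2.69% (2.19 to 3.27) and 2.25% (1.82 to 2.76) of the aldolase pair in B cell mRNA and 0.860% (0.585 to 1.22) and 0.721% (0.480 to 1.04) in T cell mRNA. The ratio of Aldoa to Aldoc was 3.15-fold lower in B cells. In footprints Aldoc took 6.67% and 1.92% in B cells against 5.26% and 3.33% in T cells. Those shares overlapped between the cell types (exact permutation p = 1), and the intervals ranged from 0.0487% to 17.2%, so that the mRNA difference was not detectable in footprints at this depth.

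Hk2 took 15.6% (13.0 to 18.5) and 8.80% (6.73 to 11.2) of the hexokinase pair in B cell mRNA, and 3.997% (3.05 to 5.14) and 2.41% (1.62 to 3.44) in T cell mRNA. The B cell libraries differed from each other by more than their counting error, and both lay above the T cell libraries. The ratio of Hk1 to Hk2 was 4.14-fold lower in B cells. In footprints Hk2 took 20.6% and 15.4% in B cells and 16.2% in T cell library 1. T cell library 2 had 0 of 8 counts, which allows up to 37.5%. The footprint ratio of Hk1 to Hk2 in B over T cells had a log2 difference of -1.11, of -0.24 without T cell library 2 and of -1.99 without T cell library 1.

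**Figure D3:**
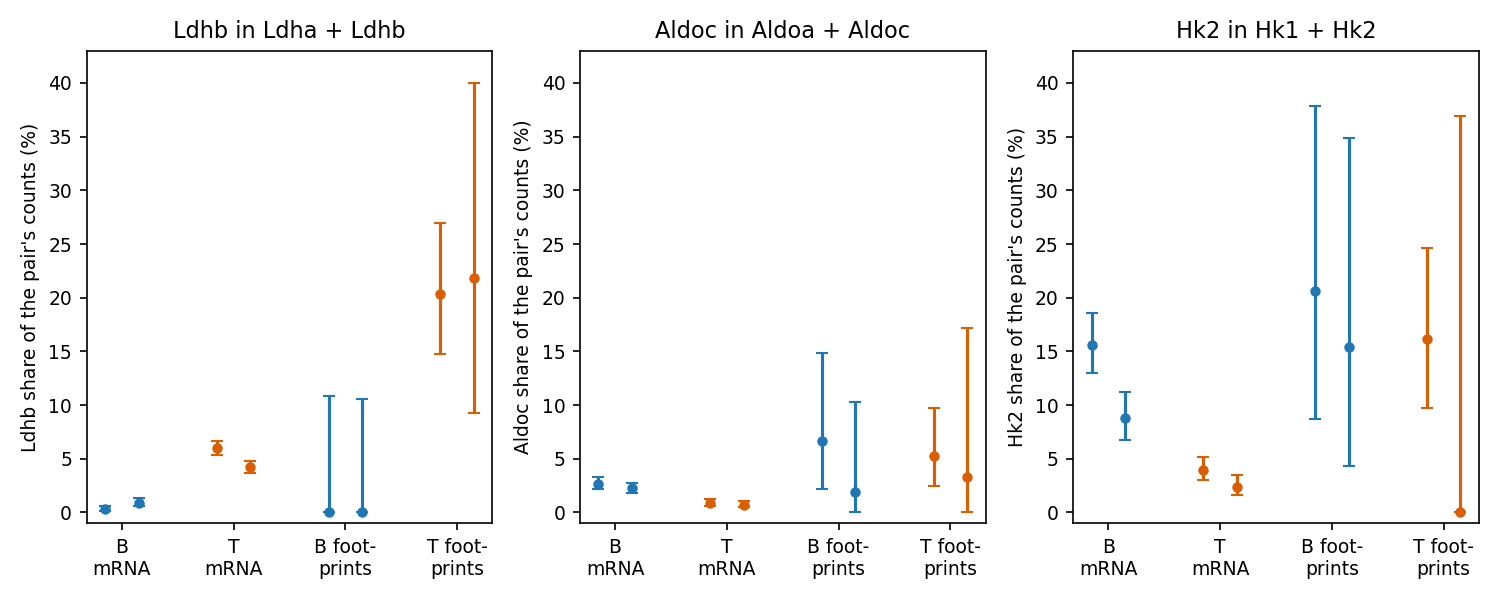
Share of a pair's counts on the second gene, in percent, for Ldhb (left), Aldoc (middle) and Hk2 (right). Each point is 1 library with its exact 95% binomial interval, blue for B cells and orange for T cells. In mRNA the B and T cell libraries separate in all 3 panels, and in footprints they separate for Ldhb, at 0 against 20.3% and 21.9%. Separation among other gene pairs was not counted.

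In T cells the second gene of each pair had a larger share of footprints than of mRNA, apart from the 0 of 8 hexokinase counts in T cell footprint library 2. This comparison was added after the values were seen. From mRNA to footprints, the ratio of first to second gene was lower by 5.20-fold for Ldha and Ldhb, 6.76-fold for Aldoa and Aldoc and 3.32-fold for Hk1 and Hk2 in T cells. In B cells the ratio was 1.88-fold lower in footprints for Aldoa and Aldoc and 1.74-fold lower for Hk1 and Hk2. On the log2 scale the hexokinase difference in T cells was -1.73, and it was -0.86 without T cell footprint library 1 and -2.61 without T cell footprint library 2. The aldolase difference in B cells was -0.91, and it was -0.20 without B cell footprint library 1 and -1.62 without B cell footprint library 3. The exact permutation p was 0.333 for each of these. Footprints cover the coding sequence alone, while mRNA reads also cover untranslated ends, so differences in those ends enter such a ratio.

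The ratio of footprints to mRNA was estimated for each gene in a model of all 8 libraries. It was scaled over both assays together, so it is not the quotient of the CPM above, and the median gene stood at -0.44 in B cells and -0.54 in T cells on the log2 scale. With RLE size factors in edgeR these medians were -0.34 and -0.42, and in the DESeq2 fit -0.24 and -0.35. Values below are log2 ratios. For Pkm and for those of the 10 genes that passed, the distance from the median gene is given as well. That median also depended on which genes were tested: with no filter on low counts it was -1.31 in B cells and -1.30 in T cells, and over genes with a mean of at least 10 CPM it was -0.14 and -0.15. The distances below therefore hold for the 13227 genes of this fit. In B cells 3 of the 10 genes had fewer footprints than mRNA and 0 had more, where 18.8% of 13227 genes passed, 12.3% lower and 6.51% higher. In T cells 5 had fewer and 0 more, where 27.5% of genes passed, 18.6% lower and 8.91% higher. With DESeq2 the split of all calls was 1504 lower and 1428 higher in B cells, against 1623 and 861, and 2167 and 1678 in T cells, against 2464 and 1178.

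Gapdh, Eno1 and Ldha had fewer footprints than mRNA in both cell types. Gapdh stood at -1.67 ± 0.31 in B cells (adjusted p = 0.00878) and -1.73 ± 0.31 in T cells (adjusted p = 0.00531), which is -1.23 and -1.20 from the median gene. Eno1 stood at -1.48 ± 0.37 in B cells (adjusted p = 0.0264) and -2.06 ± 0.37 in T cells (adjusted p = 0.00549), or -1.05 and -1.52 from the median gene. Ldha stood at -1.07 ± 0.27 (adjusted p = 0.0284) and -1.46 ± 0.27 (adjusted p = 0.00598), or -0.63 and -0.92 from the median. Their ratios stood between the 23.3 and the 36.3 percentile of the genes tested. With no filter on low counts the distances from the median shrank to -0.38 and -0.42 for Gapdh and to -0.20 and -0.74 for Eno1, and Ldha stood at 0.22 in B cells and -0.14 in T cells. All 3 genes still passed in both cell types there. In B cells Eno1 and Ldha did not pass without either B cell footprint library (adjusted p = 0.0538 to 0.0994). Both also missed the threshold without B cell mRNA library 3 (adjusted p = 0.0904 and 0.110), as did Ldha without B cell mRNA library 1 (0.0875). Gapdh in T cells did not pass without T cell footprint library 1 (adjusted p = 0.0636).

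Aldoa (-0.87 ± 0.26, adjusted p = 0.0410) and Pgk1 (-0.90 ± 0.27, adjusted p = 0.0408) also passed in T cells. Their distances from the median gene were only -0.33 and -0.36, and with no filter they turned to 0.45 and 0.42. Neither gene passed with RLE size factors in edgeR (adjusted p = 0.0607 and 0.0577), with no filter (0.0814 and 0.0809) or over protein-coding genes alone (0.0518 and 0.0525), and Pgk1 did not pass at a mean of at least 10 CPM (0.0525). Neither passed either when T cell footprint library 1 or 2, or any 1 of the 4 mRNA libraries, was left out. Pgk1 also missed the threshold without B cell footprint library 1 (adjusted p = 0.0506). Pkm did not pass in B cells (-0.78 ± 0.35) or in T cells (-0.77 ± 0.35), which is -0.35 and -0.23 from the median gene. The estimates above the median gene in this fit were those of the hexokinases and of the second genes of the pairs, apart from Ldhb in B cells, and none passed in it. Hk1 in T cells was close to the median, 0.10 above it here and -0.17 from it at a mean of at least 10 CPM. Hk2 stood at 1.34 ± 0.81 in B cells and 1.96 ± 0.77 in T cells, Aldoc at 0.26 ± 0.64 and 1.87 ± 0.61, and Hk1 at 0.67 ± 0.35 and -0.44 ± 0.34. Ldhb stood at 0.88 ± 0.49 in T cells. Aldoc in T cells was at the threshold, with an adjusted p of 0.0507 in edgeR and 0.00763 in DESeq2. It passed with RLE size factors (0.0415), with no filter (0.0458), over protein-coding genes alone (0.0432) and without B cell footprint library 1 or 3 (0.0219 and 0.0246). Without T cell footprint library 1 it stood at 1.11 with an adjusted p of 0.743. Hk2 in T cells passed with no filter (0.0434) and without T cell footprint library 2 (0.0412), in which it had 0 counts.

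Gapdh, Eno1, Aldoa, Pgk1 and Ldha have closely similar gene copies or pseudogenes in the mouse genome, and the authors' handling of reads with several matching places is unknown here. Their ratios of footprints to mRNA are therefore uncertain. The enolase copy Eno1b had 26 to 32 counts in the mRNA libraries and 0 in the footprints. The testis form Gapdhs had 25 to 33 counts in mRNA and 0 in footprints. Of the other 12 copies named in the tables, Aldoart1 had the most, 4 counts over the 8 libraries.

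**Figure D4:**
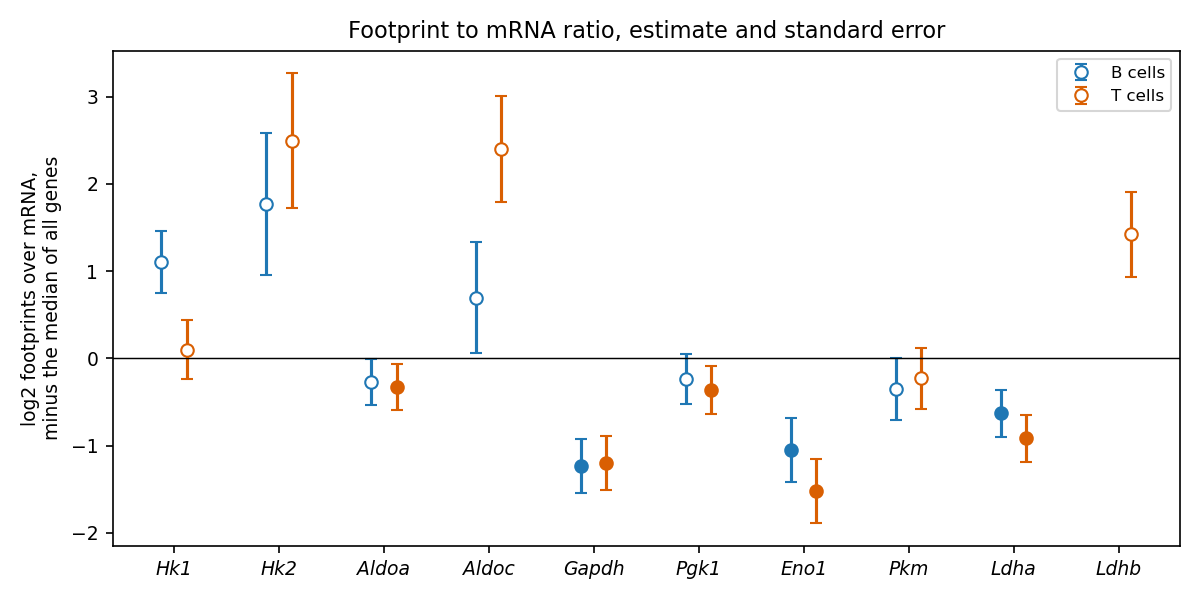
Log2 ratio of footprints to mRNA for each gene in B cells (blue) and T cells (orange), as the distance from the median of the genes tested, with standard errors. Filled points passed the test against a ratio of 1 on the scaled counts, and Ldhb in B cells is left out because it had 0 footprints. Gapdh lies at -1.23 and -1.20 in the 2 cell types, and Hk2 and Aldoc in T cells lie at 2.50 and 2.40 with wide errors.

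Translational efficiency, the ratio of footprints to mRNA in B cells over that in T cells, did not pass the test for any of the 10 genes with edgeR, nor did any pass at an unadjusted p under 0.05. Over all 13227 genes 0% passed with edgeR, while 748 had an unadjusted p under 0.05 and 10 genes passed with DESeq2, none of them among the 10 glycolysis genes. The estimate nearest the threshold was that of Hk1, 1.11 ± 0.49 (adjusted p = 0.875). It was 0.63 without T cell footprint library 2 and 1.96 without T cell footprint library 1. Aldoc followed at -1.61 ± 0.85 (adjusted p = 0.881), from 9 footprints or fewer in each library. For the deeply counted genes the 95% intervals were from -0.69 to 1.01 for Aldoa, from -0.91 to 1.05 for Gapdh, from -1.14 to 1.11 for Pkm and from -0.47 to 1.25 for Ldha. For Ldhb, its B cell mRNA level and the T cell ratio of footprints to mRNA would give 1.46 footprint counts over both B cell libraries. The 0 counts found do not differ from that by more than counting error, and a difference in Ldhb translation was not detectable at this depth.

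The rest of the pathway was described from 5 lists of related genes. Together 14 of their 67 genes tested in mRNA passed (20.9%), near the 18.5% of all genes, so the genes below are a description. Among 12 measured enzymes of glycolysis other than the 10, 2 had lower mRNA in B cells and 0 had higher, and the list's median was 0.09. Both encode phosphofructokinase, the main control point of the pathway: Pfkm (4.58 against 15.2 CPM, -1.73 ± 0.35) and Pfkp (67.5 against 124 CPM, -0.88 ± 0.15). Pfkp was also lower in B cell footprints (-1.34 ± 0.40, adjusted p = 0.0475), the only gene of 6 tested there. In transport of glucose and lactate, 2 of 8 genes were higher in B cells, Slc2a6 (15.9 against 1.96 CPM, 3.01 ± 0.35) and the monocarboxylate carrier Slc16a7 (5.87 against 0.675 CPM, 3.10 ± 0.39). In footprints 0 of 4 transport genes, 0 of 10 genes of pyruvate fate and 0 of 8 genes of the pentose phosphate and glycogen branches passed with edgeR, as with DESeq2, and 0 of them had an unadjusted p under 0.05.

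Among 12 measured regulators of glycolysis 2 were higher and 2 lower in B cell mRNA. Pfkfb4, which sets the level of the activator of phosphofructokinase, was higher (29.2 against 7.57 CPM, 1.95 ± 0.18). Mlxip, a glucose-responsive transcription factor, was higher as well (0.80 ± 0.12). Egln3 (1.17 against 9.88 CPM, -3.07 ± 0.35) and Egln1 (-0.93 ± 0.15), which encode oxygen-dependent hydroxylases that mark hypoxia-inducible factors for decay, were lower. Of 3 regulators tested in footprints Myc, a transcription factor that raises glycolytic genes, was higher in B cells (3.22 ± 0.55, adjusted p = 0.00202). Among 19 genes of pyruvate fate 2 were lower and 0 higher in B cell mRNA: Pdk1, the kinase that holds back pyruvate dehydrogenase (51.3 against 221 CPM, -2.10 ± 0.20), and Pdha1, a subunit of that enzyme (-0.77 ± 0.12). Among 16 genes of the pentose phosphate and glycogen branches 3 were higher and 1 lower, with Pgls at 1.19 ± 0.16, Rpia at 0.75 ± 0.15 and Gys1 at 0.98 ± 0.20 higher and H6pd at -1.02 ± 0.21 lower. Egln1 and H6pd were named after their values were seen. The medians of these lists lay between -0.15 and 0.09, against -0.01 over all genes.

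For the ratio of footprints to mRNA, 9 of the 66 genes tested from these lists passed in B cells (13.6%) and 16 in T cells (24.2%). Over all genes 18.8% and 27.5% passed, so the 7 genes that passed in both cell types are a description. Their values are log2 ratios, where the median gene stood at -0.44 in B cells and -0.54 in T cells. The lactate carrier gene Slc16a1 had more footprints than mRNA, at 2.34 ± 0.41 in B cells and 2.44 ± 0.38 in T cells, as did Hif1a at 1.75 ± 0.36 and 2.13 ± 0.35, Got1 at 1.42 ± 0.41 and 2.48 ± 0.39 and Pdp2, a phosphatase of pyruvate dehydrogenase, at 1.52 ± 0.38 and 1.42 ± 0.32. Fewer footprints were found on Gpi1 (-1.12 ± 0.28 and -1.37 ± 0.28), Pdk1 (-1.59 ± 0.41 and -2.19 ± 0.31) and Pgls (-2.26 ± 0.27 and -1.88 ± 0.28). Gpi1 encodes the isomerase between the hexokinase and phosphofructokinase steps, and it fell in the same range as Ldha, Eno1 and Gapdh.

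The genes whose levels over the 8 libraries were most like those of Ldhb, Aldoc and Hk1 were listed among 7455 genes with a mean of at least 10 CPM in each assay. Likeness was the root mean square difference of log2 CPM, with 1 CPM added and centred within each assay. For Ldhb they were Trat1 (0.21), F2rl1 (0.30), Celsr1 (0.33) and Bicdl1 (0.34), where the median candidate was at 2.46. All 4 had 0 footprints in both B cell libraries, a trait that the choice by likeness to Ldhb favours. For Hk1 they were Krba1 (0.12), Nup210 (0.16), Kif3b (0.18) and Prkca (0.18), with a median candidate at 0.65. For Aldoc they were Bcl6 (0.27), Sesn2 (0.28), Med31 (0.28) and Nek8 (0.30), with a median candidate at 0.87, and the low footprint counts of Aldoc enter these values.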

How the data were processed

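RNA-seq and ribosome profiling were analysed in 2 libraries for each of 4 groups. The authors deposited whole-number counts per Ensembl gene, 1 table per library. FastQC, Bowtie2, TopHat, HTSeq and the mm10 build are named in the submitters' processing notes. Of their versions, the counted feature and the strand setting nothing is stated in the sources used here. Of 53801 IDs, 53620 had a symbol. Of the count columns, 0 were left unused. The chi-square per degree of freedom between a group's libraries was 5.35 to 32.5, above sampling noise. Separate animals are not named in the labels, so the p-values measure only a spread that may be technical.

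Counts were tested with edgeR 4.0.16 in R 4.3.3 (TMM, filterByExpr at a minimum of 10 counts and 15 in all, quasi-likelihood test). B and T cells were compared within each assay (2 residual degrees of freedom). Ratios of footprints to mRNA came from all 8 libraries (4 residual degrees of freedom). Pair ratios had 0.5 added to each count. Alternatives were DESeq2 1.42.0, RLE scaling, other filters, protein-coding genes alone, leaving out 1 library at a time, and a block on the replicate number. The genes, lists and tests were chosen with earlier results of these data known. The 10 genes are named whatever their result, and of each list and comparison up to 3 genes with the smallest p that passed. Promoters and coordinates are from RefSeq in GRCm38.p6, matched by symbol. Floors of 3 counts cover counting error only.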

Additional observations from a re-analysis of the deposited data

How the results depend on the processing

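Libraries left out one at a time gave 2 genes that passed in mRNA (4 with all libraries), 0 to 1 in footprints (1), 0 in translational efficiency (0), 1 to 3 for footprints against mRNA in B cells (3) and 2 to 6 in T cells (5). Hk1 and Ldhb were the 2 that passed in mRNA each time. DESeq2, RLE scaling, the other filters and protein-coding genes alone kept every count of passing genes within 1.5 times. The genes that passed were not always the same. In T cells with no filter, Aldoa and Pgk1 no longer passed with fewer footprints than mRNA, and Hk2 and Aldoc passed with more. With RLE scaling or protein-coding genes alone, Aldoa and Pgk1 did not pass either, and Aldoc passed with more. With a replicate block, which joins samples of the same number across assays, 2 genes passed in T cells and 0 in translational efficiency, where 87 of all genes then passed. The labels do not say whether samples of the same number belong together, and the main fits took no pairing. Deviations of B cell libraries 1 and 3 correlated at -0.0159 between assays. At 4.68 and 5.26 CPM per footprint count, counting noise can hide a pairing, so this cannot decide it. Summed T cell, natural killer, erythroid and macrophage markers were higher in library 3 in both assays. Those of B and plasma cells were not. With the block, Ldha in B cells missed the threshold (adjusted p = 0.0526). B and T cells share only number 1 within an assay, so no block was possible there.

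Signs of log2 differences and ratios turned only for values that did not pass. Distances from the median gene also turned with no filter for genes that had passed. They were 0.22 for Ldha in B cells, and 0.45 for Aldoa and 0.42 for Pgk1 in T cells. Translational efficiency turned to -0.00034 for Gapdh at a mean CPM of at least 10 and to -0.074 for Aldoa with the replicate block. With single libraries left out, footprints of B over T cells ranged from -0.27 to 0.87 for Hk1, -0.62 to 0.12 for Gapdh and -0.24 to 0.76 for Eno1. Translational efficiency ranged from -1.21 to 8.89 for Hk2, -0.14 to 0.26 for Aldoa, -0.38 to 0.24 for Gapdh, -0.059 to 0.43 for Pgk1 and -0.59 to 0.23 for Pkm. Footprints over mRNA ranged from -1.25 to 0.90 for Aldoc in B cells, and in T cells from -1.32 to 0.019 for Hk1 and -7.59 to 2.53 for Hk2, which has 0 footprints in T cell library 2. The log2 ratio of Aldoa to Aldoc in footprints ranged from -0.52 to 0.90. DESeq2 gave no adjusted p for 3 values of the 10 genes. Footprint depth limits Hk2, Aldoc and Ldhb most.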
